A study of Mus musculus with 10 samples.

Results

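The genes described here encode subunits of the RNA polymerases (symbols Polr1, Polr2 and Polr3 with a letter), factors of ribosomal RNA processing (Utp with a number) and enzymes and partners of transfer RNA methylation (Trmt with a number). They were chosen by symbol alone, with no measured value in the choice, and 51 of the 22180 genes tested on the arrays met that choice. There were 26 Polr genes (5 Polr1, 12 Polr2 and 9 Polr3), 10 Utp genes and 15 Trmt genes. Polr2h, Trmt13, Trmt61b and Utp14b were left out because their probe sets are annotated to a further gene as well.

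The RNA came from cortices of CD1 mouse embryos at E12-13 and was hybridised to Affymetrix Mouse Gene 2.0 ST arrays; no genotype or treatment is given beyond the strain. The 4ET-IP group held 3 arrays of RNA bound to immunoprecipitated 4E-T (replicates 1, 2 and 3), the IgG-IP group 3 arrays of RNA precipitated with control IgG (replicates 2, 3 and 4), and the input group 4 arrays of total RNA (replicates 1 to 4). 4E-T is a partner of eIF4E, the protein that binds the mRNA cap, and is known as a translational repressor found in P-bodies. The comparisons ask which RNAs were relatively more or less abundant with it. The series calls the samples biological replicates without saying how many embryos or litters went into each. Values are RMA log2 values, on which a difference of 1 is a doubling. A whole cortex was used, so fewer cells of a type and less RNA per cell cannot be told apart in the input. A difference between a precipitate and another group is one of relative abundance in the RNA recovered.

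RNA polymerase I makes the large ribosomal RNA precursor in the nucleolus, RNA polymerase II makes messenger RNA precursors, and RNA polymerase III makes transfer RNA and other small RNAs. Each is built from large catalytic subunits and many small ones, several of them shared. The Utp proteins, named from U3-associated proteins of yeast, belong to the small subunit processome that cuts and folds the ribosomal RNA precursor. The Trmt proteins add methyl groups to transfer RNA in the cytoplasm, the nucleus or mitochondria, or assist the enzymes that do. Together these genes supply parts for making messenger RNA, ribosomes and transfer RNA, for which growing precursor cells have a high demand.

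The arrays 4ET-IP 1 and input 1 were on a lower scale than the other 8. Their medians over all probe sets were 3.52 and 3.54, against 4.33 to 4.54 on the others, and no IgG-IP array was among them. Differences below come from one limma fit of all 10 arrays with terms for group and for this lower set, with calls made where p, adjusted by Benjamini-Hochberg over all genes, was under 0.05. Whether the 2 arrays were normalized apart from the others is not stated. A fit with group alone makes far fewer calls, and its counts are given too. All 8 cortical precursor markers and all 6 neuronal markers lay above the array's median gene on each input array. Of the precursor markers 5 were called higher in 4ET-IP than in IgG-IP (Sox2, Hes1, Hes5, Nes and Emx2), and 0 with group alone. Their summed level, centred on each array's median, was 41.7 to 47.1 in 4ET-IP, 35.1 to 36.4 in IgG-IP and 36.2 to 39.7 in input. The summed level of 5 endothelial markers was 4.69 to 5.79 in 4ET-IP, 0.506 to 1.95 in IgG-IP and 2.97 to 4.84 in input, with Kdr called higher in 4ET-IP than in IgG-IP. Of the neuronal markers Dcx was called lower. Group alone called 1 endothelial and 1 neuronal marker in the same directions. The summed level of 5 microglial markers was 1.40 to 1.80 in 4ET-IP, 0.14 to 0.77 in IgG-IP and 0.35 to 1.18 in input. Of these 5, 0 were called in 4ET-IP over IgG-IP, and 1 lay above the array's median gene on each input array. In the fit their median difference of 4ET-IP over IgG-IP was -0.0047, with 2 above 0 and 3 below, so the centred sums show no common rise. The other sums overlapped between 4ET-IP and IgG-IP. For 6 neuronal markers they were 31.8 to 34.9 in 4ET-IP, 31.0 to 32.1 in IgG-IP and 31.0 to 34.4 in input. For 2 erythroid markers they were 9.05 to 10.6, 6.34 to 10.1 and 7.85 to 11.2. For 5 meningeal markers they were -1.40 to 1.96, -0.78 to 2.90 and -1.22 to 3.39. The part of these markers in the results below was not tested.

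The comparison of 4ET-IP with IgG-IP gave 10 genes higher in 4ET-IP and 0 lower. They were Trmt10c, Trmt5 and Trmt61a, then Utp3, Utp15 and Utp4, and then Polr2d, Polr2l, Polr2k and Polr3d. Of all genes tested, 7.57% were called higher and 2.92% lower. The 51 genes were brighter than most, with a median 2.00 to 3.08 above the median of all genes on an array. The share called among genes of like level was not counted. The differences of 43 of the 51 genes were above 0, against 53.7% of all genes. The median difference was 0.29 over the 51 genes and 0.03 over all genes. By family it was 0.43 for Utp, 0.29 for Trmt and 0.26 for Polr genes. At an unadjusted p under 0.05 limma had 18 of the 51 higher and 1 lower, against 15.7% and 8.12% of all genes. The fit with group alone called 2 higher (Trmt10c and Trmt5) and 0 lower, against 0.708% and 0.64% of all genes, and the 8 arrays outside the lower set gave 9 higher and 1 lower (Polr3gl), against 6.29% and 2.33%. With the replicate number as a block 8 were higher and 0 lower, against 7.80% and 3.26% of all genes. In the deposited values 13 of the 51 had every 4ET-IP array above every IgG-IP array and 3 had every one below, against 7.02% and 14.5% of all genes. The lower set holds 4ET-IP 1 and no IgG-IP array, so neither these counts nor the shares of all genes are corrected for scale. The count of 10 was 4 without 4ET-IP 2 and 6 without 4ET-IP 3.

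**Figure D1:**
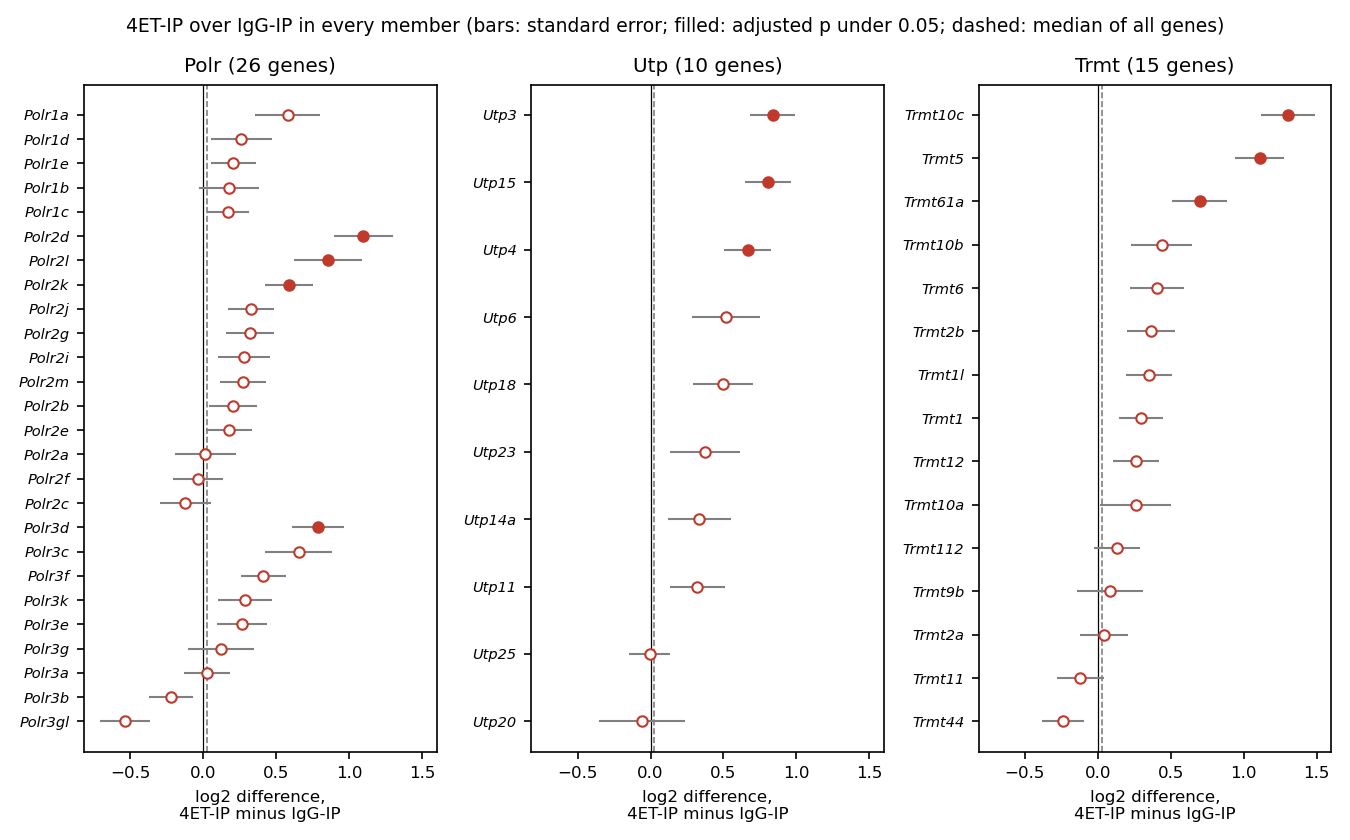
Log2 difference of 4ET-IP minus IgG-IP for each of the 51 genes, in a panel per family, with Polr genes ordered by polymerase. Points are estimates of the fit, bars are standard errors, filled points were called, and the dashed line is the median of all genes (0.03). The 10 filled points lie between 0.59 (Polr2k) and 1.30 (Trmt10c), and the lowest open point is Polr3gl at -0.54.

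Among the transfer RNA methylation genes, Trmt10c led. It encodes the subunit of mitochondrial RNase P that methylates mitochondrial transfer RNA. Trmt10c had 8.42, 8.24 and 8.25 in 4ET-IP 1, 2 and 3, against 7.23, 7.17 and 6.62 in IgG-IP 2, 3 and 4, with 7.27, 7.53, 7.49 and 7.32 in input 1 to 4. Every 4ET-IP array was above every other array. The difference of 4ET-IP over IgG-IP was 1.30 ± 0.19 (SE, 2.47-fold, adjusted p = 0.00148).

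Trmt5, whose product methylates the guanosine beside the anticodon, showed the same order. It had 8.03, 8.35 and 8.29 in 4ET-IP, against 7.48, 7.10 and 6.96 in IgG-IP, with 7.23, 7.49, 7.21 and 7.29 in input. The 4ET-IP arrays again lay above all others, and IgG-IP and input overlapped. The difference was 1.11 ± 0.17 (2.16-fold, adjusted p = 0.00219). These are the 2 genes that were also called with group alone (adjusted p = 0.0151 for Trmt10c and 0.0397 for Trmt5), and both were called without any 1 array.

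Trmt61a encodes the catalytic subunit of the methyltransferase whose partner is Trmt6. Its values were 3.99, 5.19 and 5.33 in 4ET-IP, against 4.95, 4.27 and 4.41 in IgG-IP, with 3.44, 4.72, 4.62 and 4.44 in input. The groups overlapped, with the lowest value of each of 4ET-IP and input on its lower-scale array. The difference was 0.70 ± 0.19 (1.62-fold, adjusted p = 0.0365). The call was lost in the 8 arrays (0.0631), a fit that leaving out 4ET-IP 1 or input 1 repeats here and below. The call was also lost without any 1 of 4ET-IP 2 or 3, IgG-IP 3 or 4, or input 2 or 3 (from 0.0570 to 0.172). Its partner Trmt6 was at 0.40 ± 0.18 and was not called (adjusted p = 0.206).

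The other 12 Trmt genes were not called. At the low end were Trmt44, whose product methylates serine transfer RNA, at -0.24 ± 0.14, Trmt11, at -0.12 ± 0.16, and Trmt2a, a uridine methyltransferase gene, at 0.04 ± 0.16. Trmt112, whose product is a partner of several methyltransferases including Trmt11, was at 0.13 ± 0.16. The 2 close relatives of Trmt10c in the cytoplasm and nucleus were at 0.44 ± 0.21 for Trmt10b and 0.26 ± 0.24 for Trmt10a. The differences of the Trmt genes from one another were not tested.

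Of the Utp genes, Utp3 (Sas10 in yeast) had its lowest values in IgG-IP. It had 8.43, 8.37 and 8.52 in 4ET-IP, against 7.51, 7.83 and 7.38 in IgG-IP, with 8.63, 8.47, 8.48 and 8.44 in input. The 4ET-IP and input arrays overlapped, and every IgG-IP array was below both. The difference was 0.84 ± 0.15 (1.79-fold, adjusted p = 0.00598), and it was called without any 1 array, with adjusted p up to 0.0495.

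Utp15 and Utp4 encode proteins of the same early-assembling part of the processome, known in yeast as UTP-A. Utp15 had 8.26, 8.56 and 8.47 in 4ET-IP, against 7.81, 7.76 and 7.46 in IgG-IP, with 7.27, 7.47, 7.38 and 7.18 in input. Utp4 had 8.50, 8.64 and 8.72 in 4ET-IP, against 8.21, 7.92 and 7.75 in IgG-IP, with 7.89, 7.85, 7.75 and 7.73 in input. For both genes all 4ET-IP arrays were above all arrays of the other groups. The differences were 0.81 ± 0.16 for Utp15 (1.75-fold, adjusted p = 0.00751) and 0.67 ± 0.16 for Utp4 (1.59-fold, adjusted p = 0.0208). The call of Utp15 was lost without 4ET-IP 2 (0.0566), and that of Utp4 without 4ET-IP 2 or 3 or IgG-IP 3 or 4 (from 0.0531 to 0.122).

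The other 7 Utp genes were not called. Utp6 and Utp18, which belong to the UTP-B part in yeast, were at 0.52 ± 0.23 and 0.50 ± 0.21. In the 8 arrays outside the lower set, limma called Utp6 higher (adjusted p = 0.0397). Utp11 was at 0.32 ± 0.19. Utp20 and Utp25 were near 0, at -0.06 ± 0.30 and -0.01 ± 0.14, and the sign of both turned in some other settings.

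Among the polymerase genes, Polr2d had the largest difference. It encodes a subunit of the stalk of RNA polymerase II, beside Polr2g. Polr2d had 8.38, 8.72 and 8.67 in 4ET-IP, against 7.59, 8.07 and 7.20 in IgG-IP, with 8.89, 9.41, 9.26 and 9.30 in input. The groups did not overlap, with input highest and IgG-IP lowest. The difference of 4ET-IP over IgG-IP was 1.10 ± 0.20 (2.14-fold, adjusted p = 0.00592), and it was called without any 1 array. Polr2g, its partner in the stalk, was at 0.32 ± 0.17 and was not called.

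Polr3d encodes a subunit of RNA polymerase III that pairs with Polr3e. It had 7.22, 7.37 and 7.14 in 4ET-IP, against 6.70, 6.54 and 6.36 in IgG-IP, with 6.78, 7.20, 7.36 and 6.88 in input. All 4ET-IP arrays were above all IgG-IP arrays, and 4ET-IP and input overlapped. The difference was 0.79 ± 0.18 (1.72-fold, adjusted p = 0.0160), a call lost without 4ET-IP 2 (0.0914). Polr3e was at 0.26 ± 0.17 and was not called.

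Polr2l and Polr2k encode small subunits shared by all 3 polymerases. Polr2l had 5.99, 7.29 and 6.71 in 4ET-IP, against 5.94, 5.84 and 6.12 in IgG-IP, with 6.19, 6.02, 6.37 and 6.19 in input. Polr2k had 9.91, 10.41 and 10.61 in 4ET-IP, against 9.83, 10.24 and 9.83 in IgG-IP, with 10.06, 11.02, 10.88 and 10.83 in input. Both genes overlapped between 4ET-IP and IgG-IP. The differences were 0.86 ± 0.23 for Polr2l (1.81-fold, adjusted p = 0.0383) and 0.59 ± 0.16 for Polr2k (1.5-fold, adjusted p = 0.0403). Polr2l lost its call without any 1 of 4ET-IP 2 or 3, IgG-IP 2 or 3, or input 3 (from 0.0607 to 0.233). Polr2k lost it in the 8 arrays (0.0849) and without any 1 array other than IgG-IP 3 (from 0.0515 to 0.178). With the replicate number as a block both calls were lost (adjusted p = 0.0599 for Polr2l and 0.0593 for Polr2k).

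**Figure D2:**
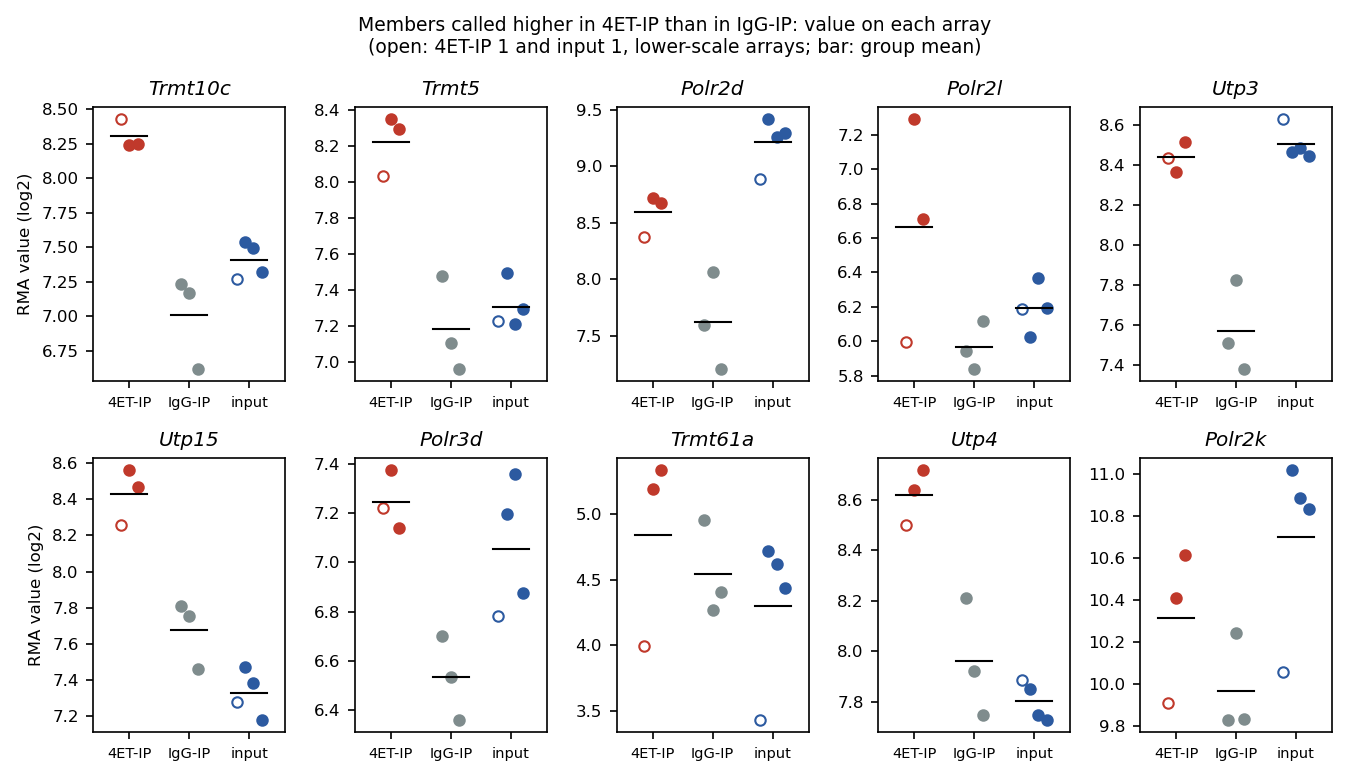
RMA log2 value on each of the 10 arrays for the 10 genes called higher in 4ET-IP than in IgG-IP, in a panel per gene with its own vertical scale. Open circles are the lower-scale arrays 4ET-IP 1 and input 1, and bars are group means. Trmt10c, Trmt5, Utp15 and Utp4 have all 4ET-IP values above all others, and Polr2d has its highest values in input.

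The large catalytic subunits did not pass the test in this comparison. Polr1a was at 0.58 ± 0.22, Polr2a at 0.02 ± 0.21 and Polr3a at 0.03 ± 0.16, and the second largest subunits Polr1b, Polr2b and Polr3b were at 0.18 ± 0.21, 0.20 ± 0.17 and -0.22 ± 0.15. The lowest differences were those of Polr3gl (-0.54 ± 0.17, adjusted p = 0.0691), Polr3b and Polr2c (-0.12 ± 0.17). Polr3gl encodes one of a pair of alternative subunits of RNA polymerase III, and had 5.67, 5.98 and 5.98 in 4ET-IP, against 6.49, 6.79 and 6.58 in IgG-IP, with 6.25, 7.30, 7.0 and 7.15 in input. All its 4ET-IP arrays were below all IgG-IP arrays, and it was called lower in the 8 arrays. Its alternative Polr3g was at 0.12 ± 0.23. No Polr1 gene was called by limma in this comparison, and 1 of the 5 had an unadjusted p under 0.05.

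Against input, 8 genes were higher in 4ET-IP and 14 lower. Of all genes 10.4% were called higher and 8.86% lower. The higher genes were Utp15, Trmt5, Trmt10c, Utp4, Trmt61a, Polr1a, Polr2b and Polr3f, and 12 of the 14 lower ones were Polr genes, the others being Trmt112 and Trmt1. The median difference was -0.34 over the Polr genes, 0.02 over the Trmt genes and 0.26 over the Utp genes, beside 0.04 over all genes. At an unadjusted p under 0.05 limma had 10 higher and 18 lower, against 16.1% and 12.9% of all genes. With group alone 4 genes were higher (Utp15, Trmt5, Trmt10c and Utp4) and 6 lower (Polr2c, Polr2e, Polr2f, Polr2g, Polr2i and Polr3gl), against 2.56% and 3.58% of all genes. The 8 arrays outside the lower set gave 9 higher and 12 lower, against 8.88% and 7.20% of all genes. The replicate block left the counts at 8 and 14, against 10.9% and 9.46%. All 4ET-IP arrays were above all inputs in 7 of the 51 genes and below in 15, against 6.45% and 8.44% of all genes. The count of higher genes was 5 without 4ET-IP 2, 4 without 4ET-IP 3 and 5 without input 3, and that of lower genes was 8 without 4ET-IP 3.

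Utp15 was highest, by 1.12 ± 0.14 (2.17-fold, adjusted p = 2.58e-04), and Utp4 was higher by 0.82 ± 0.14 (1.76-fold, 0.00173). Trmt5 was higher by 0.93 ± 0.15 and Trmt10c by 0.90 ± 0.17 (adjusted p = 0.00107 and 0.00249). All 4 were called without any 1 array, and the difference of 4ET-IP 1 over input 1, within the lower set, was 0.98 for Utp15, 0.62 for Utp4, 0.80 for Trmt5 and 1.16 for Trmt10c. Trmt61a was at 0.64 ± 0.17 (adjusted p = 0.0191), not called without 4ET-IP 1, 2 or 3 or input 1 (from 0.0562 to 0.100).

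Of the other polymerase genes that were higher, Polr1a encodes the largest subunit of RNA polymerase I. It had 6.75, 7.22 and 7.06 in 4ET-IP, against 6.61, 6.69, 6.29 and 5.97 in input, with 6.67, 6.43 and 6.22 in IgG-IP. Polr2b encodes the second largest subunit of RNA polymerase II. It had 8.96, 9.39 and 9.35 in 4ET-IP, against 8.74, 8.68, 8.64 and 8.76 in input, with 9.20, 9.23 and 8.83 in IgG-IP. In both genes all 4ET-IP arrays were above all inputs, and in Polr2b all IgG-IP arrays were as well. The differences of 4ET-IP over input were 0.62 ± 0.20 and 0.55 ± 0.15 (adjusted p = 0.0463 and 0.0213). That of Polr3f, a subunit of RNA polymerase III, was 0.47 ± 0.14 (adjusted p = 0.0284). Polr1a lost its call without 4ET-IP 2 or 3, IgG-IP 3, or input 3 or 4 (from 0.0578 to 0.226), and Polr2b without 4ET-IP 2 or 3 or input 2 or 3 (from 0.0572 to 0.117). Polr3f lost it in the 8 arrays (0.153) and without 4ET-IP 1 or 3 or input 1, 2 or 3 (from 0.0506 to 0.153).

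Of the 14 genes lower than in input, 7 were Polr2 genes. Polr2i, a small subunit of RNA polymerase II, had 8.55, 8.12 and 8.23 in 4ET-IP, against 9.10, 9.35, 9.39 and 9.62 in input, with 7.98, 8.10 and 7.98 in IgG-IP. Polr2f, a subunit shared by all 3 polymerases, had 8.77, 8.79 and 8.79 in 4ET-IP, against 9.43, 9.91, 9.94 and 9.97 in input, with 8.77, 9.19 and 8.77 in IgG-IP. The precipitates lay below every input array for both genes. The differences of 4ET-IP over input were -1.07 ± 0.16 for Polr2i (2.10-fold lower, adjusted p = 6.22e-04) and -1.01 ± 0.15 for Polr2f (6.46e-04). Polr3gl was at -1.0 ± 0.15, Polr2c at -0.99 ± 0.15, Polr2g at -0.86 ± 0.15 and Polr2e, a further shared subunit, at -0.85 ± 0.14 (adjusted p from 7.53e-04 to 0.00153). These 6 were called without any 1 array.

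Polr1c and Polr1d, subunits shared by RNA polymerases I and III, were at -0.67 ± 0.13 and -0.84 ± 0.18, and Trmt112 was at -0.68 ± 0.14. Trmt1, a guanosine methyltransferase gene, was at -0.58 ± 0.13. Polr2d was at -0.59 ± 0.18, Polr3k at -0.58 ± 0.16, Polr2j at -0.50 ± 0.14 and Polr1e, a subunit of RNA polymerase I, at -0.49 ± 0.14. Polr1d and Trmt1 lost their calls without 4ET-IP 3 (0.0532 and 0.0542). Polr2d lost its call in the 8 arrays (0.0924) and without any 1 array of 4ET-IP or input (from 0.0647 to 0.138), and Polr1e in the 8 arrays (0.0892) and without 4ET-IP 1 or 3 or input 1, 2 or 4 (from 0.0509 to 0.158). Polr3k lost it without 4ET-IP 2 or 3 or input 2, 3 or 4 (from 0.0632 to 0.157), and Polr2j without 4ET-IP 2 or 3 or input 2 or 3 (from 0.0622 to 0.158). The single difference within the lower set was of the same sign as the fit in all 14, from -0.85 for Polr2c to -0.08 for Polr3k.

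In IgG-IP, which shows what the beads and a control antibody carry along, 20 genes were lower than in input and 0 higher. Of all genes 10.5% were called lower and 6.14% higher. The lower ones were 14 Polr, 3 Utp and 3 Trmt genes, and the median differences were -0.64 for Polr, -0.13 for Utp and -0.24 for Trmt genes, beside 0.03 over all genes. At an unadjusted p under 0.05 limma had 25 of the 51 lower and 1 higher, against 15.7% and 12.4% of all genes. With group alone 11 were lower and 0 higher, against 3.99% and 1.45% of all genes. The 8 arrays gave 21 lower and 1 higher (Polr2a), against 9.97% and 5.68%. The replicate block left the counts at 20 and 0, against 11.5% and 7.11%. All IgG-IP arrays were below all inputs in 21 of the 51 genes and above in 4, against 8.23% and 14.1% of all genes. These are deposited values, not corrected for the lower scale of input 1, and the shares of all genes are not either. Of the 20 calls, 19 held without any 1 array. Polr3d (-0.58 ± 0.16, adjusted p = 0.0310) was lost without 4ET-IP 2, IgG-IP 3 or 4, or input 2 or 3 (from 0.0509 to 0.108).

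Polr2d was lowest, at -1.69 ± 0.19 (3.23-fold lower, adjusted p = 1.46e-04), then Polr2i at -1.35 ± 0.16 (2.55-fold, 2.60e-04) and Polr2g at -1.19 ± 0.15 (2.28-fold, 3.45e-04). Polr1d was at -1.10 ± 0.19, Polr2e at -1.03 ± 0.14, Polr3c at -1.01 ± 0.21 and Polr2f at -0.98 ± 0.16. Polr3c, a subunit of RNA polymerase III, had 6.67, 7.09 and 6.11 in IgG-IP, against 7.18, 7.80, 7.65 and 7.44 in input, with 6.81, 7.16 and 7.42 in 4ET-IP. Its IgG-IP values were below every input, while 4ET-IP and input overlapped.

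Polr2k was lower by a difference of -0.91 ± 0.15, Polr2c by -0.87 ± 0.16, Polr3k by -0.87 ± 0.17, Polr1c by -0.84 ± 0.13, Polr2j by -0.83 ± 0.14 and Polr1e by -0.70 ± 0.14. Of the Utp genes, Utp3 was at -0.91 ± 0.14, Utp18 at -0.90 ± 0.19 and Utp11 at -0.75 ± 0.17. Of the Trmt genes, Trmt1 was at -0.87 ± 0.14, Trmt112 at -0.81 ± 0.14 and Trmt2b, a mitochondrial methyltransferase gene, at -0.72 ± 0.15. The adjusted p-values of these 12 genes were between 0.00110 and 0.0107.

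**Figure D3:**
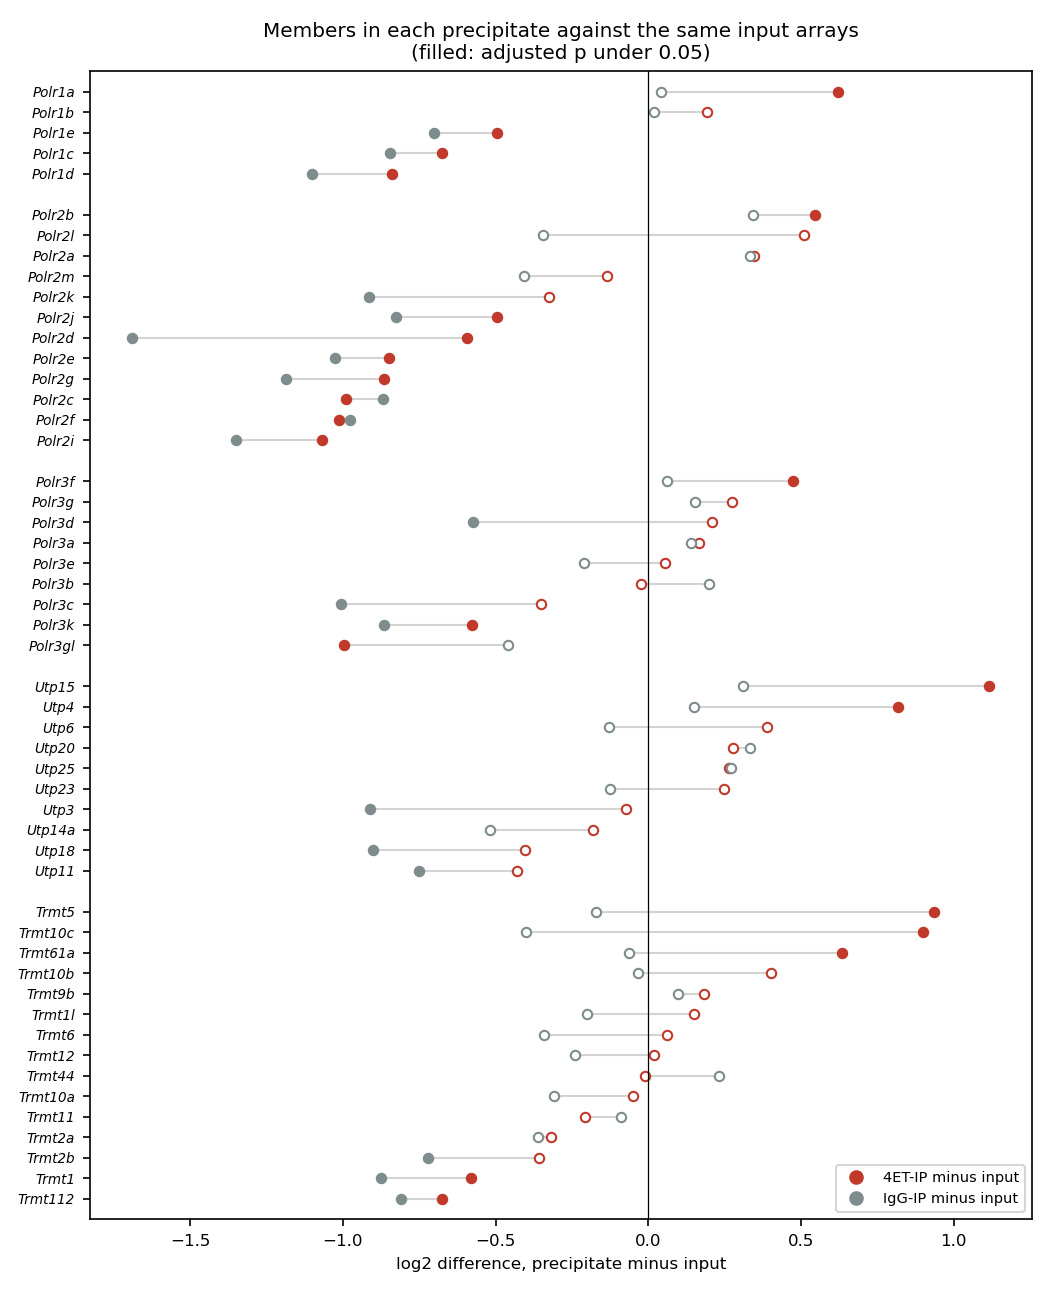
Log2 difference against input of 4ET-IP (red) and IgG-IP (grey) for each of the 51 genes, grouped by polymerase and family, with filled points for calls and a line joining the estimates of a gene. Both differences of a gene use the same 4 input arrays, so they are not independent. Of the 12 Polr2 genes, 7 have filled points left of 0 in both precipitates, and the calls right of 0, all in 4ET-IP, are Utp15, Utp4, Trmt5, Trmt10c, Trmt61a, Polr1a, Polr2b and Polr3f.

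Set side by side, with the input arrays shared by both comparisons, the calls fell into a few patterns. The share of all genes with each pattern was not counted, so whether these counts are unusual cannot be told. Higher in 4ET-IP than in both IgG-IP and input were 5 genes: Trmt10c, Trmt5, Trmt61a, Utp15 and Utp4. Polr2d was higher in 4ET-IP than in IgG-IP and lower than input in both precipitates. Polr2k, Polr3d and Utp3 were higher in 4ET-IP than in IgG-IP, lower than input in IgG-IP, and not called in 4ET-IP against input. Lower than input in both precipitates, and not called between them, were 12 genes: Polr1c, Polr1d, Polr1e, Polr2c, Polr2e, Polr2f, Polr2g, Polr2i, Polr2j, Polr3k, Trmt1 and Trmt112. In 21 of the 51 genes no comparison gave a call, among them the largest subunits Polr2a and Polr3a. In the 8 arrays outside the lower set, limma called Polr2a higher than input in both precipitates (adjusted p = 0.0163 in 4ET-IP and 0.0486 in IgG-IP).

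The polymerases can also be followed array by array, as the median of their genes minus the median of all genes on the array. For the 12 Polr2 genes this was 4.45, 3.81 and 3.81 in 4ET-IP 1, 2 and 3, against 3.56, 3.52 and 3.45 in IgG-IP 2, 3 and 4, with 4.85, 4.49, 4.40 and 4.53 in input 1 to 4. The 4ET-IP arrays were above the IgG-IP arrays, and apart from the lower-scale array 4ET-IP 1 the precipitates were below the inputs. For the 10 Utp genes the range was 2.49 to 2.52 in 4ET-IP, 2.08 to 2.19 in IgG-IP and 2.25 to 3.15 in input. These medians are given as a description, with no test.

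**Figure D4:**
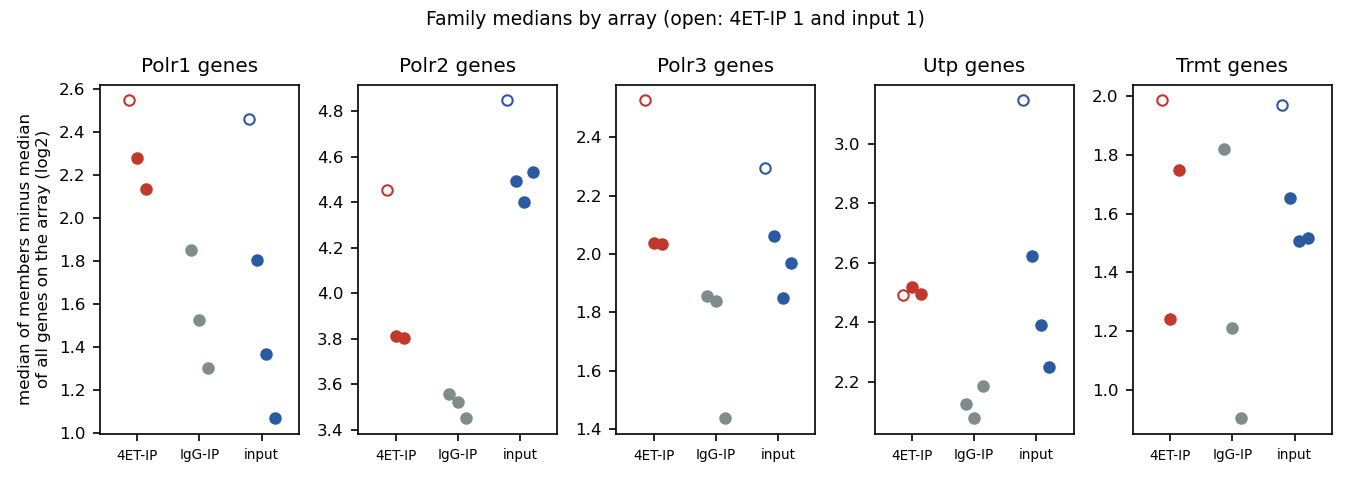
Median over the genes of each group minus the median over all genes on the same array (log2), for Polr1, Polr2, Polr3, Utp and Trmt genes, with a point per array. Open circles are the lower-scale arrays 4ET-IP 1 and input 1. The Polr2 panel shows 4ET-IP between 3.81 and 4.45, IgG-IP between 3.45 and 3.56 and input between 4.40 and 4.85.

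The promoters of the 5 genes that were higher in 4ET-IP than in both other groups are shown because these genes share that pattern of calls. That of Trmt61a is the least firm, as given above. RefSeq windows of GRCm38.p6 were at hand for 39 of the 51 genes. The 250 bases before the annotated start are printed 5′ to 3′ on the gene's strand, with matches to CCGGAAG, the core of sites of ETS factors, in capitals on either strand (CTTCCGG on the other). The windows are chr16:56037787-56038036 (minus) for Trmt10c, chr12:73286712-73286961 (minus) for Trmt5, chr12:111677855-111678104 (plus) for Trmt61a, chr13:98262993-98263242 (minus) for Utp15 and chr8:106893390-106893639 (plus) for Utp4.
Trmt10c: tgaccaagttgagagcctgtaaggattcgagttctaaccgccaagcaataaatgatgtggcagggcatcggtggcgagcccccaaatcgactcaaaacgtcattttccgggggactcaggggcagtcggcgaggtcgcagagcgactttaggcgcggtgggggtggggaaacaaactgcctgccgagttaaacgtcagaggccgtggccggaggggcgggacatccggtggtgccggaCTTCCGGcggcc
Trmt5: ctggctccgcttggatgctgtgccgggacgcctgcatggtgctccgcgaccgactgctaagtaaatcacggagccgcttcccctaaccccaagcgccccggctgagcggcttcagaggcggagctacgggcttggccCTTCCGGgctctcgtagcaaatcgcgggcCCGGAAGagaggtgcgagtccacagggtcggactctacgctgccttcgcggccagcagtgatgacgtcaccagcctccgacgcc
Trmt61a: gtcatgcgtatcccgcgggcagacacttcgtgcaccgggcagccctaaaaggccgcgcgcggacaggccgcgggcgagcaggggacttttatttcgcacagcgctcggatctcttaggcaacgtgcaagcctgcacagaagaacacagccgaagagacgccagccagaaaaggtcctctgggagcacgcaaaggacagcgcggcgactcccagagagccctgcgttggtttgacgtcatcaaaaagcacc
Utp15: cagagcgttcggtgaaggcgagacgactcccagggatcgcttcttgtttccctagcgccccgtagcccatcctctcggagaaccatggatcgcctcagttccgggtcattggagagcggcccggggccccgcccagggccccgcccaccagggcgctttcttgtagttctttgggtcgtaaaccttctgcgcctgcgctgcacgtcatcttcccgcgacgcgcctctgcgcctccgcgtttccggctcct
Utp4: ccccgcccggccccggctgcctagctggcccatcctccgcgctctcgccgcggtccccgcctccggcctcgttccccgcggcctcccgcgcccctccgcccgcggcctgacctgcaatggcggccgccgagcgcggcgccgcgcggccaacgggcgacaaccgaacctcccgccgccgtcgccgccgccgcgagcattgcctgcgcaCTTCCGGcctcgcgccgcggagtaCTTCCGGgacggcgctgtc
Trmt10c had 1 match, Trmt5 and Utp4 had 2 each, and these letters were not in the windows of Trmt61a and Utp15. Of 44 windows of the genes, 13 held a match (29.5%), against 6.91% of all 32851 windows. A search for CACGTG, an E-box bound by Myc among other factors, found 5 of the 44 windows (11.4%), against 6.02% of all windows. None of the 5 printed windows held it. CACGTG is its own reverse complement and its matches cannot overlap those of CCGGAAG, whose 2 strands can overlap each other. Windows of the genes had a median GC content of 61.0%, against 52.4% over all windows. A match is a description of letters, not of a site in use.

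The general transcription factors and other genes of the same machines gave calls in both directions, and their counts can be read against the 7.57% higher and 2.92% lower of all genes in 4ET-IP over IgG-IP. Of 10 Pol I factors and subunits under other symbols, Taf1b (0.72 ± 0.18) and Rrn3 (0.60 ± 0.14), both initiation factors of RNA polymerase I, were higher in 4ET-IP than in IgG-IP, and Taf1d (-2.10 ± 0.17) was lower. Of 29 general transcription factors of RNA polymerase II, 5 were higher and 1 lower. Gtf2f2 was at 1.20 ± 0.17, Gtf2e2 at 0.96 ± 0.18, Gtf2h1 at 0.67 ± 0.19, Mnat1 at 0.62 ± 0.18 and Taf3 at 0.56 ± 0.15, with Taf2 at -0.85 ± 0.15. Of 16 Pol III factors and subunits under other symbols, 4 were higher and 1 lower. Crcp, which encodes a further subunit of RNA polymerase III, was higher by 1.67 ± 0.28 (3.18-fold, adjusted p = 0.00341). Snapc5 was at 1.08 ± 0.18, Gtf3c5 at 0.87 ± 0.18, Maf1, a repressor of RNA polymerase III, at 0.78 ± 0.15, and Bdp1, an initiation factor, at -0.66 ± 0.14. Of these, group alone called Taf1d.

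Of 33 further small subunit processome genes, 5 were higher in 4ET-IP than in IgG-IP and 0 lower, with 10 higher and 1 lower at an unadjusted p under 0.05 by limma (15.7% and 8.12% of all genes). They were Rrp7a (1.49 ± 0.22), Mphosph10 (1.07 ± 0.20), Wdr43 (0.87 ± 0.15), Pwp2 (0.60 ± 0.16) and Wdr75 (0.49 ± 0.14), and group alone called Wdr43 (adjusted p = 0.0495). Wdr43 and Wdr75 belong with Utp4 and Utp15 to the UTP-A part, by their yeast counterparts. The other genes of that part on the list, Heatr1 and Nol11, were not called. Pwp2 belongs to the UTP-B part with Utp6 and Utp18, neither of which was called in the fit with the term for the lower set. Of the 33 genes 28 were not called, whatever their part. Of 16 other transfer RNA methyltransferase genes and partners, Mettl1, the guanosine methyltransferase, was higher (1.06 ± 0.20, adjusted p = 0.00725, and 0.0499 with group alone), and 0 were lower, with 2 higher and 0 lower at an unadjusted p under 0.05 by limma.

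Of 34 other transfer RNA modification genes, 4 were higher in 4ET-IP than in IgG-IP (Tprkb, 1.05 ± 0.19; Urm1, 1.02 ± 0.27; Elp3, 0.80 ± 0.20; Pus3, 0.59 ± 0.14) and 4 lower (Trmu, -0.75 ± 0.14; Mto1, -0.74 ± 0.19; Trit1, -0.68 ± 0.20; Dus3l, -0.52 ± 0.15). Group alone called 0 of these 34. The list medians in 4ET-IP over IgG-IP were 0.14, 0.20, 0.20, 0.23, 0.10 and 0.06 in the order of the lists above, beside 0.03 over all genes.

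Against input, where 10.4% of all genes were higher and 8.86% lower in 4ET-IP, the lists again gave calls both ways. In 4ET-IP over input 2 of the 10 Pol I genes were higher and 3 lower, 5 and 9 of the 29 RNA polymerase II factors, and 3 and 4 of the 16 Pol III genes. Of the 33 processome genes 5 were higher and 10 lower, of the 16 other methyltransferase genes 0 and 2, and of the 34 other modification genes 4 and 11. With group alone the counts for these 6 lists, in that order, were 1 and 2, 2 and 4, 0 and 1, 1 and 5, 0 and 1, and 0 and 3.

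In IgG-IP over input, where 6.14% of all genes were higher and 10.5% lower, 2 of the Pol I genes were higher and 2 lower, 2 and 11 of the RNA polymerase II factors, and 3 and 4 of the Pol III genes. Of the processome genes 0 were higher and 9 lower (1 and 16 at an unadjusted p under 0.05 by limma), of the other methyltransferase genes 0 and 2, and of the other modification genes 1 and 8. With group alone the counts were 0 and 0, 1 and 6, 1 and 2, 0 and 6, 0 and 1, and 0 and 2.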

How the data were processed

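The deposited log2 values come from RMA, run by the authors in Expression Console of Affymetrix (submitters' processing notes, per the labels), with no version or genome build stated there. Of 41345 probe sets, 23521 had 1 gene symbol in the platform annotation and 1814 had several; only those with 1 were used, and the probe set with the highest mean was kept for the 1082 genes with more than one, which left 22180 genes. Dim genes were kept, as detection calls were not used here, and precision is limited by the number of arrays.

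Genes were fitted with limma 3.58.1 in R 4.3.3 (lmFit, eBayes) on all 10 arrays, with terms for group and for the lower-scale set, the arrays whose median lay more than 0.5 below the median of array medians. P-values were adjusted by Benjamini-Hochberg over all genes, and errors of differences are standard errors. The code was tested on simulated data. The members, the related lists, this model and the naming rule were chosen with earlier results of these data known. The rule named every called member and the 3 highest and 3 lowest of each family in 4ET-IP over IgG-IP. It also named up to 5 called genes at each end of a related list. Other members and list genes named are partners or relatives of these. Alternatives were group alone, the 8 other arrays, median centring, quantile normalization, the replicate block, averaged probe sets, a filter on dim genes, a trended robust eBayes and leaving out each array. Promoter windows are from RefSeq (GRCm38.p6), and symbols matched by identifier with 0 updates. Plots used matplotlib 3.10.9 (Python 3.11.15).

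Same-numbered 4ET-IP and input arrays had correlations of their deviations from group means of 0.62, 0.24 and 0.28; once the lower set was a term, those for numbers 2 and 3 were -0.04 and -0.10. Those of IgG-IP and input were -0.02, 0.08 and 0.32 for numbers 2, 3 and 4 (0.09, 0.09 and 0.27 with that term), and those of 4ET-IP and IgG-IP -0.07 and 0.02 for numbers 2 and 3 (0.09 and 0.02). Number 1 is the lower set itself.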

Additional observations from a re-analysis of the deposited data

Results flagged for a closer look

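In 4 of the 51 genes tested, input 1 lay apart from the other 3 inputs by more than Dixon's critical gap for 4 samples, as a share of their range. Polr2f had 9.43 on input 1, against 9.91 to 9.97 on the others. Polr2g had 9.96, against 10.33 to 10.38. Trmt1 had 5.46, against 6.15 to 6.23, and Trmt9b had 4.49, against 5.34 to 5.42. Chance flags about 1 in 20 groups. Input 1 is one of the 2 lower-scale arrays, and the term for that set is in the fit behind the differences given, unless another fit is named. Group alone, centred arrays, quantile normalization and the replicate block carry no such term.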

How the results depend on the processing

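Group alone gave 2 genes higher in 4ET-IP than in IgG-IP (10 with the set term), 4 higher and 6 lower in 4ET-IP than in input (8 and 14) and 11 lower in IgG-IP than in input (20). Group alone moves the median of all genes to -0.19 in 4ET-IP over IgG-IP and 0.20 in IgG-IP over input. It reversed none of the 61 named values and lost 29 calls. Centring arrays on their median gave 4 higher and 5 lower in 4ET-IP over input, and quantile normalization 9 lower. In 4ET-IP over IgG-IP the 8 arrays added 1 lower gene (Polr3gl) and 1 higher (Utp6). In 4ET-IP over input they added 3 higher (Polr2a, Polr2l and Utp6). In IgG-IP over input they added 1 higher (Polr2a) and 1 lower (Polr3gl). Because of the set term, leaving out 4ET-IP 1 or input 1 gave the same fit as these 8 arrays. The filter on dim genes added 1 lower in 4ET-IP over IgG-IP (Polr3gl).

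Without 1 array, the counts ranged from 4 to 9 higher and 0 to 1 lower for 4ET-IP over IgG-IP, 4 to 9 higher and 8 to 15 lower for 4ET-IP over input, and 0 to 1 higher and 19 to 21 lower for IgG-IP over input. With the replicate number as a block the counts were 8 higher and 0 lower, 8 higher and 14 lower, and 0 higher and 20 lower, and it changed no call other than those of Polr2k and Polr2l in 4ET-IP over IgG-IP.

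Reversed signs were seen in uncalled genes of 4ET-IP over IgG-IP. Centred arrays gave 0.22 for Polr3b, 0.20 for Polr2c, 0.30 for Utp20, 0.37 for Utp25, 0.14 for Trmt44 and 0.25 for Trmt11. Quantile normalization gave 0.12 for Utp20, 0.050 for Utp25, 0.12 for Trmt44 and 0.10 for Trmt11. The 8 arrays gave 0.14 for Utp20 and 0.041 for Utp25, and the block 0.017 for Utp25 and -0.042 for Trmt2a. Leaving out 1 array gave from -0.25 to 0.014 for Polr2c, -0.33 to 0.14 for Utp20, -0.094 to 0.041 for Utp25 and -0.083 to 0.16 for Trmt2a. The cause of these shifts was not tested. Averaged probe sets and the trended robust eBayes changed none of the named calls.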

Other observations

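Several genes of the 3 families have probe sets annotated to a further gene, so their signals cannot be assigned and were not tested. The probe set of Acsl3 and Utp14b had 7.59 ± 0.22 in 4ET-IP, 6.69 ± 0.42 in IgG-IP and 6.86 ± 0.18 in input (SD, n = 3, 3 and 4). That of Trmt13 and Lrrc39 had 5.89 ± 0.33 in 4ET-IP, 5.99 ± 0.51 in IgG-IP and 5.89 ± 0.08 in input. That of Dok4 and Polr2c had 5.16 ± 0.59, 5.02 ± 0.18 and 5.16 ± 0.36 in the same groups. The first of the 2 probe sets of Spdya and Trmt61b had 4.14 ± 0.46 in 4ET-IP, 5.17 ± 0.50 in IgG-IP and 5.02 ± 0.50 in input, and the second had 4.95 ± 0.60, 5.44 ± 0.57 and 5.79 ± 0.14. Those of Polr2h and Gm7511 had 5.01 ± 0.19 and 4.74 ± 0.33 in 4ET-IP, 5.40 ± 0.12 and 5.06 ± 0.49 in IgG-IP, and 5.39 ± 0.60 and 5.79 ± 0.33 in input.

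Polr2k has 4 single-symbol probe sets, of which the one with the highest mean was used. On the other 3, the values of 4ET-IP 1, 2 and 3 were 5.57, 6.38 and 6.90, then 8.23, 8.78 and 8.88, then 10.03, 10.48 and 10.53. Those of IgG-IP 2, 3 and 4 were 5.75, 6.44 and 5.94, then 8.18, 8.40 and 8.35, then 9.83, 10.24 and 9.99. The groups overlapped on each of these 3 probe sets, as on the one used.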
